A study of Mus musculus with 6 samples.

Results

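Peaks of N6-methyladenosine (m6A) that ran over 3 or more blocks of a transcript, each block a stretch of genome parted from the next by a gap, were taken from both of the authors' tables of peaks in male mouse germ cells. A peak counted as a member where its line in the table listed at least 3 blocks, so members were chosen by the peak call and its number of blocks, which rest on the enrichment of IP over input, and these are given below as description only. The table for ClpP held 2072 members among 24127 peaks (8.59%), on 1756 of 13346 genes. The table for ClpX held 1563 members among 23681 peaks (6.60%), on 1433 of 13094 genes. Together that was 3635 of 47808 listed peaks.

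The m6A mark is laid on nascent RNA by the Mettl3 and Mettl14 methyltransferase with partners such as Wtap, Virma, Zc3h13 and Cbll1, can be removed by Alkbh5 and Fto, and is bound by YTH-domain readers. It is known to gather near stop codons and in long internal exons, and exon junction complexes are known to keep it low on short exons near splice junctions. In spermatogenesis, writers and readers of the mark are needed for meiosis and for the maturation of spermatids. The ClpXP protease of the mitochondrial matrix pairs ClpP, which cuts proteins, with ClpX, an unfoldase that feeds them in.

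The 6 libraries came from primary male germ cells, titled spermatocytes, at postnatal day 35. One IP library (RNA captured by the m6A antibody) and 1 input library (RNA before capture) stood for each of 3 genotypes, which were WT, ClpP knockout and ClpX knockout. Each gene was removed in germ cells by Cre recombinase under the Stra8 promoter, which is active from the spermatogonial stage onward. Whether the WT animals carried Cre, and how many animals went into a library, is not stated in the labels. Each comparison of a knockout with WT rested on 4 libraries with no replicate, so no value below has an error between animals, and the authors' adjusted p-values compare libraries and not genotypes at large. Both comparisons used the same WT libraries. Depth is unknown, since the tables hold no read counts. The log2 fold change is read as knockout over WT, because each table names the knockout first, and no other source states the direction. Both target genes lacked a member: Clpx had a 1-block peak in both tables and Clpp a 1-block peak in the ClpX table, so the members carry no check of the deletion. Peaks lay on 8 (ClpP) and 6 (ClpX) of 10 spermatocyte markers, with members on Sycp1 and Sycp2, and on 7 and 8 of 8 spermatid markers, with members on Akap4 and Prm2. They also lay on 6 of 7 Sertoli markers in both tables, with a member on Clu, and on 5 and 8 of 11 markers of Leydig, peritubular, vessel and immune cells, with members on Myh11. The 12 peaks of that last list in the ClpP table had a median log2 fold change of 0.29, with 3 called higher and 0 lower. Its 16 peaks in the ClpX table had a median of 1.86, with 5 called higher and 0 lower. The other lists also stood above the 0.24 of all peaks in the ClpX table: spermatogonia at 1.14 (5 higher and 0 lower of 8 peaks, a member on Stra8), Sertoli cells at 1.03 (3 and 1 of 10), spermatids at 0.62 (6 and 0 of 11) and spermatocytes at 0.27 (3 and 0 of 9). In the ClpP table they were 0.77 (1 and 1 of 11), 0.14 (1 and 2 of 11), -0.080 (2 and 3 of 10) and 0.35 (4 and 3 of 17) in the same order. In bulk RNA, a shift in the share of such cells cannot be told apart from a change within germ cells.

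Promoter windows from RefSeq (GRCm38.p6, 250 bases before to 50 after each gene's start) gave the only genomic sequence for the members. The 50 bases of such a window after the gene's start lay inside the 5′ block of 61 members (ClpP) and 52 members (ClpX). They were searched for GGACT, which is 1 of several forms of the m6A motif. The other forms were not searched, so a member without GGACT may still hold the motif there. GGACT stood in 2 of the 61 (3.28%) and in 1 of the 52 (1.92%), against 1889 of 32817 RefSeq starts (5.76%). On the reverse strand of those starts the same letters stood in 4.87%. Both sequences are shown because they are the members in which GGACT could be placed inside a peak block, with GGACT in capitals, 5′ to 3′ on the minus strand. Both genes were picked after their values were seen.
Iqub, chr6:24515018-24515038: ggagctgcttccgaGGACTgg
Abcf1, chr17:35969727-35969747: ccgctggaGGACTcttaactg

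The Iqub site belonged to a 3-block peak (chr6:24503824-24515067) with a log2 fold change of 0.054 (adjusted p = 0.582) in the authors' deposited table for ClpP and -0.97 (adjusted p = 0.0339) in that for ClpX. Iqub encodes an IQ-motif and ubiquitin-like-domain protein of the sperm flagellum. The Abcf1 site belonged to a 3-block peak of 151 bases (chr17:35969232-35969761) with 0.74 (adjusted p = 0.483) in the authors' deposited table for ClpP, and had no partner in the ClpX table. Abcf1 encodes an ATP-binding protein that acts in translation initiation. Only the letters at the start of the gene were open to the search, and the rest of each peak was not searched.

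Most members were short chains. Among the ClpP members 1439 had 3 blocks, 396 had 4, 133 had 5 and 57 had 6, while 31 had 7, 10 had 8, 3 had 9, 2 had 10 and 1 had 11. Among the ClpX members 1149 had 3 blocks, 299 had 4, 73 had 5 and 23 had 6, while 11 had 7, 5 had 8, 2 had 9 and 1 had 11. The 11-block peak was that of Mns1, a coiled-coil protein inside the microtubules of the flagellum, and it had 11 blocks in both tables (chr9:72438071-72458370, plus strand, in the ClpP table). Its blocks measured 44, 154, 222, 128, 103, 230, 217, 108, 258, 126 and 58 bases, 1648 in all. The 10-block peaks of the ClpP table lay on Golga3, a golgin of the Golgi apparatus (chr5:110193754-110212259, 1559 bases), and on Smap1, a regulator of the small GTPase Arf6 in membrane traffic (chr1:23853522-23922049, 716 bases). Cfap45, a protein inside flagellar microtubules, had 9 blocks in both tables, Spag17 of the axonemal central pair had 9 in the ClpP table, and Cep164 of the centriole had 9 in the ClpX table.

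**Figure D1:**
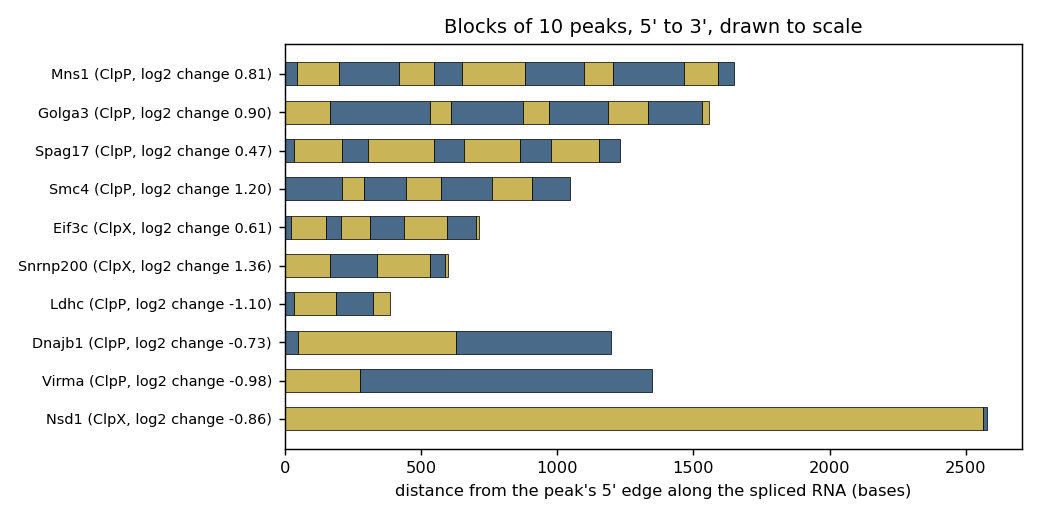
Blocks of 10 named members drawn to scale along the spliced RNA, from the 5′ edge of the peak (horizontal axis, bases), in alternating colours, with the comparison and its log2 fold change beside each gene. Mns1 and Golga3 are chains of many blocks of middle length, while the Nsd1 and Virma peaks are mostly 1 long block; end blocks of 1 to 3 bases are too narrow to see.

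Members were longer and spread wider than the listed peaks at large, which the rule itself favours. Their summed blocks had a median of 470.5 bases (ClpP) and 478 bases (ClpX), against 301 and 300 for all peaks, and their median span on the genome, introns included, was 5436 and 4810 bases. They held 12.6% and 9.67% of all peak bases. The shortest members had 119 bases (Ccdc90b and Snx17, ClpP) and 120 bases (Ptma and Pcif1, ClpX). The longest was on Tex15, a protein needed for meiotic recombination and transposon silencing, with blocks of 6963, 50 and 1170 bases (chr8:33570616-33582681, 8183 bases, ClpP). Plec (6268 bases, ClpX), Akap12 (5116 and 5175 bases) and Zfp644 (4708 and 4408 bases) followed. Just outside the rule, 2-block peaks had a median length of 389 bases in both tables, against 391 (ClpP) and 401 (ClpX) for 3-block peaks. Their smallest block had a median of 42 and 40 bases, against 30 and 29 for 3-block peaks.

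The outer blocks of a member were often slivers, and the internal ones were the size of ordinary exons. The 5′ block had a median of 49 bases (ClpP) and 47 (ClpX), the internal blocks 134 and 138, and the 3′ block 76.5 and 76. Under 25 bases were 517 of 2072 (ClpP) and 422 of 1563 (ClpX) 5′ blocks and 399 and 312 of the 3′ blocks, against 45 of 3119 and 34 of 2166 internal blocks. Internal blocks, which are bounded by a gap on both sides and so cannot be cut by the edge of the peak, ran from 89 to 195 bases (ClpP) and 87 to 207 bases (ClpX) in their middle 50%. Their lengths were multiples of 3 in 39.8% and 39.5%, against 33.2% and 33.7% of 5′ blocks, 33.3% and 35.1% of 3′ blocks, and 33.4% of gaps in both tables. Of the internal blocks, 336 of 3119 (10.8%, ClpP) and 280 of 2166 (12.9%, ClpX) were over 400 bases. With blocks under 25 bases left out, 1458 (70.4%) and 1053 (67.4%) members still had 3 blocks. The gaps had a median of 1543 and 1334 bases, and 34 and 36 members had a gap under 50 bases, shorter than introns usually are. The tables do not say that a block is an exon, and members are therefore described by blocks.

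**Figure D2:**
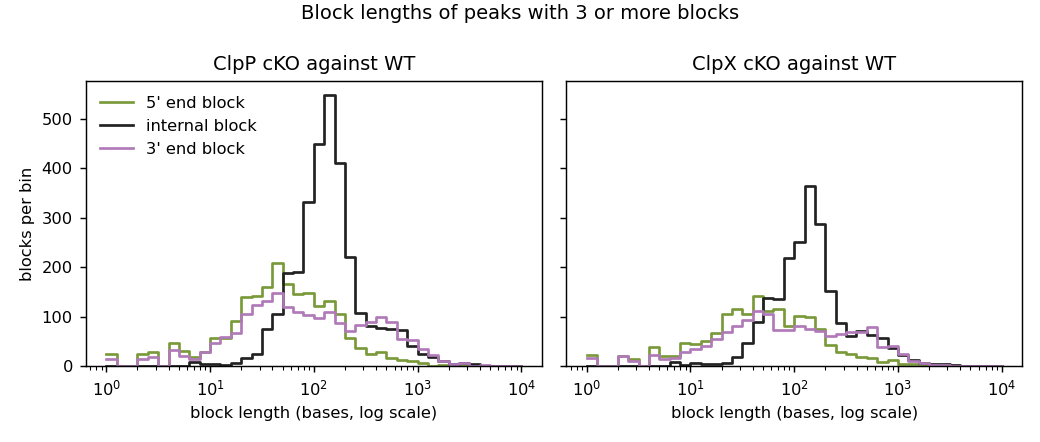
Number of blocks (vertical axis) by block length (bases, log scale) for 5′ end, internal and 3′ end blocks of the members, in the ClpP and the ClpX table. Internal blocks peak near their medians of 134 and 138 bases, while both kinds of end block spread from 1 base to over 1000.

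Members lay inside genes rather than at their 3′ ends, which the rule itself favours. A peak of 3 or more blocks cannot lie in 1 unbroken stretch at the gene's end. The centre of a member sat at a median of 60.6% (ClpP) and 57.8% (ClpX) of the RefSeq gene span from the 5′ end, introns included, over the 1972 and 1481 members whose gene was placed. For 2-block peaks the median was 73.4% and 71.2%, and for 1-block peaks 87.2% and 85.2%. The part of the gene beyond 90% held 13.2% and 13.0% of members, against 45.4% and 42.7% of 1-block peaks. A member came within 50 bases of the gene's end in 3.45% and 3.11% of cases, and of its start in 6.44% and 7.97%. The rule also favours long genes, since a member must hold gaps. Genes with a member had a median span of 38887.5 bases (ClpP) and 33972 bases (ClpX), against 19453.5 and 19532 for genes with a peak but no member. Most such genes had 1 member (1506 and 1319), while 195 and 100 had 2, and 55 and 14 had 3 or more.

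The enrichment of IP over input, a ratio that the authors give once per peak for all libraries of a table, was lower in members than over all peaks. Its median was 6.75 (6.31 to 7.18) in the ClpP table and 7.26 (6.76 to 7.77) in the ClpX table, against 8.23 and 8.90 for all peaks, where the 95% intervals cover the spread over members only. It was 7.72 and 8.54 for 2-block peaks and 6.89 and 7.69 for 3-block peaks. The highest value in the authors' deposited table for ClpX was 201 on Trpm6, a magnesium channel (4 blocks, 1 of them 1142 bases), followed by 95.7 on Kbtbd2 and 94.0 on Sart3. In the authors' deposited table for ClpP the highest were 108 on Ripk1, a kinase of cell death signalling, 101 on Msantd4 and 91.9 on Gtf2a1, a subunit of the general factor TFIIA. The lowest values in the authors' deposited tables were 1.26 and 1.27, both on a 5-block peak of Ybx3, a Y-box RNA-binding protein of male germ cells. Enrichment followed the longest block: the median was 3.98 and 4.22 for members whose longest block was at most 200 bases, and 13.6 and 14.2 where it was over 400. The same held for other peaks. In these 2 classes the median was 5.74 and 5.98, then 13.4 and 14.2, for 1-block peaks. For 2-block peaks it was 3.83 and 4.05, then 13.6 and 14.15, so over 400 bases members lay close to the other kinds.

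In the ClpP knockout, members were called different from WT in both directions at nearly equal counts. A peak is called here at an adjusted p from the authors under 0.05, and a value beside a gene name is the log2 fold change of its enrichment unless another quantity is named. Of the 2072 members, 353 were called higher (17.0%, against 6.74% of all peaks) and 326 lower (15.7%, against 12.8%). The balance did not hold where a call also had to move by 1 or more on the log2 scale, which left 213 higher and 69 lower, or at 4 or more blocks, with 169 and 102. Of all members called by the adjusted p alone, 52.0% were higher (exact binomial interval 48.2% to 55.8%), against 34.4% over all called peaks. The median log2 fold change was 0.12 (0.089 to 0.19) over members and -0.034 over all peaks. Members called higher had a median change of 1.18, a median enrichment of 4.04 and a median longest block of 192 bases. Members called lower had a median change of -0.68, a median enrichment of 9.82 and a median longest block of 585 bases. The authors' p for the peak itself was also stronger in members, with a median log10 of -33.4 against -11 over all peaks, and the part of this support in the share called was not tested.

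Among the members called higher in the ClpP knockout, predicted genes left out, the smallest adjusted p was that of Lrrc6. The 3-block peak of this assembly factor of axonemal dynein arms (chr15:66449464-66469865) had a log2 fold change of 1.90 (adjusted p = 1e-20) in the authors' deposited table. For Smc4, the condensin ATPase (chr3:69027509-69031878, 7 blocks), the authors' deposited table gave 1.20 (adjusted p = 2.51e-19). Mns1 followed with 0.81 (adjusted p = 1.58e-17) in the authors' deposited table, and Cabcoco1 with 1.30 (adjusted p = 2.51e-18). Sycp2, which builds the lateral elements of the synaptonemal complex, had 2.54 (adjusted p = 6.31e-16) in the authors' deposited table at a peak around an internal block of 419 bases (chr2:178369374-178374953). Hdlbp, the RNA-binding protein vigilin (5 blocks), stood at 1.36, the ubiquitin ligase Rnf32 at 0.91 and the nucleolar protein Lyar at 0.55 in the authors' deposited table. Enrichment was low for Cabcoco1 (1.61) and Rnf32 (1.86) in the authors' deposited table, against a median of 6.75 over members. The Golga3 peak of 10 blocks was called higher too, at 0.90 (adjusted p = 1.02e-08) in the authors' deposited table, and the Smap1 peak of 10 blocks was not called (-0.12, adjusted p = 0.542).

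Among the members called lower in the ClpP knockout, predicted genes left out, Ldhc, the lactate dehydrogenase of germ cells, had the smallest adjusted p. It had a 4-block peak of 388 bases (chr7:46861342-46866473) with a log2 fold change of -1.10 (adjusted p = 1e-169) in the authors' deposited table. Phf7, a histone reader of spermatids, had -0.53 (adjusted p = 1.58e-85) in the authors' deposited table, and Slc2a5, the fructose transporter, -1.16 (adjusted p = 1e-76). Dnajb1, an Hsp40 co-chaperone (chr8:83608712-83611156, blocks of 49, 581 and 568 bases), stood at -0.73 (adjusted p = 3.16e-73) in the authors' deposited table. The chromatin remodeller Ep400, with 864 bases in its 5′ block, stood at -0.63 in the authors' deposited table. Fem1c, a substrate adaptor of a cullin ligase, had -0.78 and Mkrn1, a RING ubiquitin ligase, -1.01 in the authors' deposited table.

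Members on meiotic genes were called higher in the ClpP knockout at 10 of 18 sites, where 17.0% of all members and 6.74% of all peaks were called higher. The meiosis and recombination list had these 18 members on 10 genes, with 0 called lower and at a median log2 fold change of 1.34. Sycp2 had 3 members called higher of 4, and Smc1b, the meiosis-specific cohesin subunit, had 2 of 3, the highest at 3.18 (adjusted p = 3.98e-06) in the authors' deposited table. Smc3, the cohesin subunit shared by mitosis and meiosis, had 3 members called higher of 4, the highest at 3.50 (adjusted p = 0.00363) in the authors' deposited table. Tex12, a central element protein of the synaptonemal complex, had 1.63 and Tex15 had 0.49 in the authors' deposited table. The members on Sycp1 (0.35, adjusted p = 0.327), Syce1 (0.40, adjusted p = 0.0912) and Mlh3 (0.28, adjusted p = 0.0724) were not called in the authors' deposited table. Several of these peaks share a gene and so are not independent of each other. The ClpX table, on the same WT libraries, had 6 members of this list. A member listed in the ClpP table alone is likely to owe its listing to the ClpP libraries, which favours higher calls. The 10 of 18 is therefore a description only.

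The axoneme and flagellum list had 28 members on 21 genes in the ClpP table, 9 called higher and 5 lower, at a median of 0.26. The count called lower was near the shares over all members (15.7%) and all peaks (12.8%). Called higher were 17.0% of all members and 6.74% of all peaks. The authors' deposited table gave 2.08 (adjusted p = 0.00295) for Dnah12, a dynein heavy chain, and 2.0 (adjusted p = 0.00676) for a peak of Hydin, a central pair protein. Dnah8, an outer arm dynein heavy chain of sperm, stood at 0.70 (adjusted p = 3.47e-10) and the flagellar protein Cfap69 at 1.69 (adjusted p = 1.7e-08) in the authors' deposited table. Those called lower had longer blocks in part: Dnah7b at -0.70 and Dnah7a at -0.35 in the authors' deposited table, each with a block of 686 bases, and Tekt3, a tektin of flagellar microtubules, at -0.77 (adjusted p = 2.51e-22) with a longest block of 258 bases. The chromatin and transcription list had 30 members, 6 called higher and 2 lower, at a median of 0.50. Its count called higher was near the share over all members (17.0%, against 6.74% of all peaks), while 15.7% of all members were called lower. The authors' deposited table gave 1.36 for a 3-block peak of Brdt, the testis bromodomain protein, and -0.37 for a 4-block peak elsewhere on Brdt, so that 2 sites of this gene went opposite ways. Chd4, a remodeller ATPase, stood at 0.88, Smarcc1 at 1.78 and Brd2 at 0.45 in the authors' deposited table.

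Over all ClpP members 17.0% were called higher and 15.7% lower, against 6.74% and 12.8% of all peaks. With few members per list, the counts here are descriptions beside those shares. On the m6A list 3 of 11 members were called lower and 1 higher in the ClpP table. The authors' deposited table gave -0.98 (adjusted p = 1.58e-15) and -1.24 (adjusted p = 1.32e-06) for 2 sites of the writer subunit Virma, -0.86 (adjusted p = 1.78e-08) for the reader Ythdf1, and 1.33 (adjusted p = 2.34e-07) for the nuclear reader Ythdc1. All 3 members on Zc3h13, and those on Wtap, Cbll1, Fto and Alkbh5, were not called. Glycolysis and sperm energy had 4 members with 3 called lower, among them Ldhc and Slc2a5. The ubiquitin and proteasome list had 7 members with 3 called lower, where the authors' deposited table gave -0.92 for the polyubiquitin gene Ubb and -0.49 for Cul3. Cytosolic chaperones had 4 called higher and 2 lower of 11, translation factors 3 and 2 of 8, splicing and RNA-binding proteins 5 and 3 of 18, autophagy 2 and 2 of 8, sperm sheath, acrosome and head 2 and 2 of 8, and mTORC1 signalling 1 and 1 of 5. In the last list, the kinase Mtor had -0.85 (adjusted p = 3.98e-18) and Mios, a GATOR subunit that acts upstream of it, 0.66 (adjusted p = 2.69e-05) in the authors' deposited table. Membrane traffic and coats had 3 called higher and 0 lower of 9, cytoskeleton 1 and 0 of 5, and the piRNA pathway 0 and 1 of 4, which was Tdrd5 (-0.80 in the authors' deposited table). On genes of mitochondria, Timm44 of the import motor (0.18, adjusted p = 0.5, in the authors' deposited table) was the 1 member among 32 peaks of mitochondrial proteostasis. Cyct, the testis cytochrome c (1.23, adjusted p = 0.000191, in the authors' deposited table), was the 1 member among 12 peaks of the respiratory chain. The TCA cycle and fatty acid list had 0 members of 20 peaks and the cytosolic ribosomal proteins 0 of 12. With 8.59% of all peaks being members, lists of this few peaks would hold few members in any case.

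The share of peaks called higher in the ClpP knockout climbed with the number of blocks. It was 4.92% for 1 block, 8.61% for 2, 12.8% for 3, 22.5% for 4, 27.8% for 5 and 41.3% (31.8% to 51.4%) for 6 or more. The share called lower was 10.8%, 18.4%, 15.6%, 17.2%, 17.3% and 10.6% in the same order. At a summed length of up to 300 bases, 15.2% of members were called higher, against 10.3% of 2-block and 4.74% of 1-block peaks. At 301 to 600 bases the shares were 24.4%, 9.37% and 5.27% in that order, and at over 600 bases 11.9%, 5.21% and 4.90%. By enrichment, 33.2% of members were called higher at 3 or less, 21.1% from there to 8, 10.6% from there to 15 and 3.46% above 15. The shares were 20.7%, 9.51%, 4.35% and 3.92% for 2-block peaks and 13.8%, 5.21%, 2.20% and 2.48% for 1-block peaks, so that above 15 the 3 kinds lay close together. Calls of 1 gene and calls of peaks that share reads depend on each other, so the exact binomial intervals are narrower than the real uncertainty. The extent of a peak, and so its number of blocks, was set on the same libraries as its call, knockout included. Block number and call are thus not independent, and the climb is a description only. Of the 924 members whose partner peak in the ClpX table had the same number of blocks, 8.66% were called higher and 24.1% lower.

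**Figure D3:**
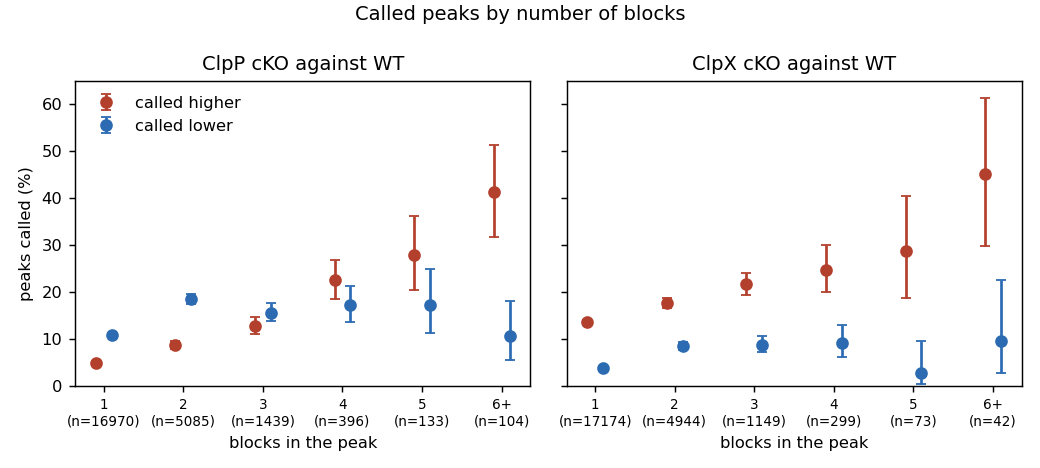
Percent of peaks called higher (red) and lower (blue) by number of blocks, with the number of peaks under each point and exact binomial 95% intervals, which treat peaks as independent. In the ClpP panel the share called higher climbs from 4.92% at 1 block to 41.3% at 6 or more, and in the ClpX panel from 13.6% to 45.2%. The number of blocks was set on the same libraries as the calls, so block number and call are not independent.

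Direction in the ClpP knockout followed the longest block of a member. Where it was at most 200 bases, 22.9% of 862 members were called higher and 4.06% lower, at a median log2 fold change of 0.54. Where it was over 400 bases, 8.11% of 703 members were called higher and 31.4% lower, at a median of -0.21. The class between had 19.5% higher and 13.8% lower of 507, at a median of 0.21. Peaks of 1 block went the same way in their medians (0.24, 0.00 and -0.23), but their shares called higher stayed at 3.80%, 5.62% and 5.11% while the shares called lower were 2.96%, 8.45% and 21.3%. Peaks of 2 blocks turned much as the members did, with 10.4% called higher and 5.25% lower where the longest block was at most 200 bases, and 5.64% and 31.5% where it was over 400. Members whose longest block was internal had 235 called higher and 153 lower of 1121, while those whose longest block was the 3′ one had 74 higher and 138 lower of 669.

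**Figure D4:**
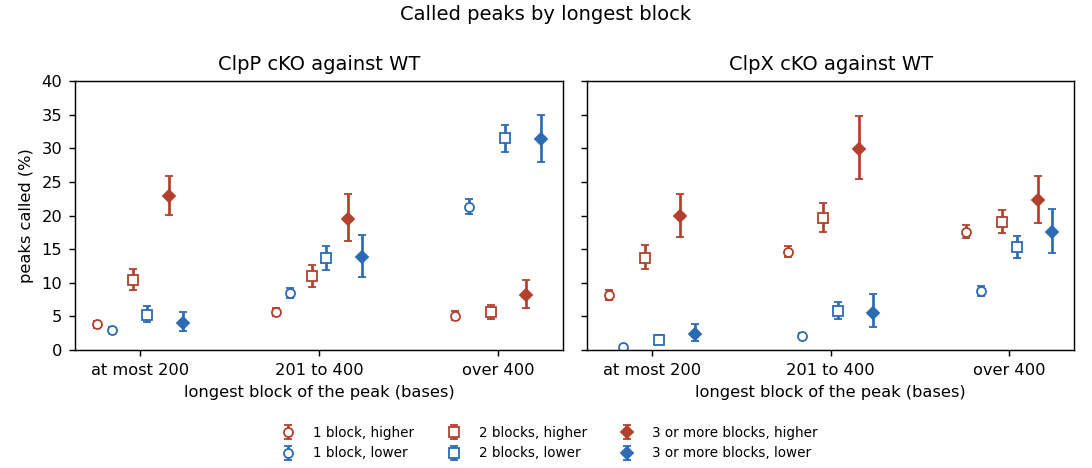
Percent of peaks called higher (red) and lower (blue) by the length of their longest block, for peaks of 1 block, 2 blocks and 3 or more blocks, with exact binomial 95% intervals that treat peaks as independent. In the ClpP panel the members go from 22.9% higher and 4.06% lower at the left to 8.11% higher and 31.4% lower at the right; in the ClpX panel their share called lower goes from 2.38% to 17.5%.

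In the ClpX knockout most called members were higher than in WT, as were most called peaks of the table. Of the 1563 members, 362 were called higher (23.2%, against 15.1% of all peaks) and 133 lower (8.51%, against 5.0%). Of those called, 73.1% were higher (69.0% to 77.0%), against 75.1% over all called peaks. The median log2 fold change was 0.23 (0.17 to 0.29) over members and 0.24 over all peaks, so with the median of all peaks taken away the members' median was -0.0090. Members called higher had a median change of 1.04 and a median enrichment of 5.20, and members called lower -1.13 and 16.4.

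Ybx2 and Prm2 had the smallest adjusted p among the members called higher in the ClpX knockout. Ybx2, an RNA-binding protein that stores mRNA in spermatids, had a 3-block peak (chr11:69939326-69940402) with a log2 fold change of 1.67 (adjusted p = 1e-104) in the authors' deposited table. The enrichment of this Ybx2 peak was low, at 1.96 in the authors' deposited table, against a median of 7.26 over members. Prm2, a protamine of sperm chromatin, had 1.11 (adjusted p = 1e-104) in the authors' deposited table. Its peak ran from 10791380 to 10795985 on chromosome 16, well beyond the RefSeq span of Prm2 (10791377 to 10792105), so part of its blocks lay outside that gene. The authors' deposited table gave 1.96 for Mlec, a lectin of the endoplasmic reticulum, 1.67 for the bromodomain protein Brd2 and 2.77 for the transcription factor Nfatc3, whose middle block had 1005 bases. Prcc had 2.05, Retreg2, a reticulon-like protein of the endoplasmic reticulum, 1.35, and Dync1h1, the heavy chain of cytoplasmic dynein, 2.68 in the authors' deposited table.

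Among the members called lower in the ClpX knockout, predicted genes left out, the smallest adjusted p was that of Ldhc. It stood at -1.04 (adjusted p = 6.31e-33) in the authors' deposited table, at the same 4 blocks of 35, 155, 133 and 65 bases as in the ClpP table. Crisp2, a secretory protein of the acrosome and tail, had -0.62 (adjusted p = 7.94e-12) and Pramel1, a germ cell protein, -1.09 (adjusted p = 1.26e-11) in the authors' deposited table. Nsd1, a histone H3 lysine methyltransferase, had -0.86 (adjusted p = 2.24e-10) in the authors' deposited table at a peak of 2, 2560 and 17 bases (chr13:55240846-55260360), and Setdb1, another such enzyme, -1.55 (adjusted p = 4.07e-08). The translesion polymerase Rev1 stood at -1.56, the cullin adaptor Kbtbd2 at -1.52 and the adhesion receptor Adgrl1 at -1.15 in the authors' deposited table, and the Adgrl1 peak lay partly in a peak of a different gene.

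By role, the chromatin and transcription list, 1 of the largest, had 10 of 30 members called higher in the ClpX table and 0 lower, at a median of 0.87, where 23.2% of all members and 15.1% of all peaks were called higher. The authors' deposited table gave 2.02 (adjusted p = 2.51e-15) for Chd4, 1.06 for Brd3, and 1.40 and 1.07 for 2 sites of the remodeller ATPase Smarca4. Splicing and RNA-binding proteins had 7 called higher and 0 lower of 21, with Ybx2, Snrnp200 (1.36 over 6 blocks), 2 sites of Sf3b2 (1.10 and 1.34), Hnrnpu (1.05), Srsf11 (0.80) and Hnrnpc (1.04) in the authors' deposited table. Cytosolic chaperones had 5 called higher and 0 lower of 11, where the authors' deposited table gave 1.24 for the Hsp70 and Hsp90 adaptor Stip1, 0.80 for calnexin (Canx), 0.78 for its testis relative Clgn, 0.62 for Dnajb1 and 0.53 for Hspa4. Sperm sheath, acrosome and head had 3 higher and 0 lower of 8, which were Prm2, Spata16 (0.81) and Smcp (0.94), a protein of the mitochondrial capsule of sperm, in the authors' deposited table. Translation factors had 3 higher and 0 lower of 8, on Eif4b (1.03 and 1.0) and Eif3c (0.61 over 8 blocks) in the authors' deposited table.

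Over all ClpX members 23.2% were called higher and 8.51% lower, against 15.1% and 5.0% of all peaks, and the list counts here are descriptions beside those shares. The meiosis list was small in the ClpX table, with 6 members, 1 called higher and 1 lower, and a median of 0.097. The called members were Sycp1, the transverse filament protein of the synaptonemal complex (7 blocks, 0.84, adjusted p = 0.0437, in the authors' deposited table), and Mlh3, a mismatch repair protein of crossovers (-0.80, adjusted p = 0.000912, in the authors' deposited table). The members on Sycp2 (-0.36, adjusted p = 0.543), Smc1b (0.44, adjusted p = 0.521) and Smc3 (0.71, adjusted p = 0.442) were not called in the authors' deposited table. Axoneme and flagellum had 2 called higher and 2 lower of 19. The authors' deposited table gave 1.20 for Dnah8, 1.33 for the radial spoke protein Rsph1, -1.95 for Cfap46 and -0.31 for Dnah7a. The m6A list had 3 higher and 1 lower of 9, where the authors' deposited table gave 1.34 for Prrc2a, 1.83 for Cbll1, 0.75 for Alkbh5 and -0.29 for Ythdf2. Ubiquitin and proteasome had 2 higher and 1 lower of 6, with Ubb at 1.34, Psmc3 at 0.68 and Cul3 at -0.81 in the authors' deposited table. Cytoskeleton had 3 higher and 0 lower of 8, all 3 on Myh9, a non-muscle myosin heavy chain. The TCA cycle list had Acadvl (2.12, adjusted p = 0.0269, in the authors' deposited table) called of 2, piRNA had Tdrd7 (0.66) called of 3, and glycolysis had Pgam2 (1.18) called higher and Ldhc lower of 5 in the authors' deposited table. Autophagy had 0 higher and 1 lower of 6, mTORC1 signalling 0 of 3 and membrane traffic 0 of 4 called, the Timm44 member (0.84, adjusted p = 0.169, in the authors' deposited table) was not called, and the respiratory chain and the cytosolic ribosomal proteins had 0 members.

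In the ClpX knockout the share called higher also climbed with the number of blocks, and the share called lower was largest at long blocks. The share called higher was 13.6% for 1 block, 17.7% for 2, 21.6% for 3, 24.7% for 4, 28.8% for 5 and 45.2% (29.8% to 61.3%, 19 of 42) for 6 or more, while the medians of the log2 fold change were 0.26, 0.17, 0.21, 0.25, 0.30 and 0.27. The share called lower was 3.70%, 8.43%, 8.70%, 9.03%, 2.74% and 9.52% in the same order. The median log2 fold change thus stayed close to that of 1-block peaks while the calls grew. Here too the number of blocks was set on the same libraries as the calls, so block number and call are not independent. Members with a longest block of at most 200 bases were 19.9% higher and 2.38% lower of 629, at a median of 0.44. The class between had 29.9% higher and 5.51% lower of 381, at a median of 0.40. Those with a longest block over 400 bases were 22.2% higher and 17.5% lower of 553, at a median of -0.059. The share called lower was largest over 400 bases in the other kinds of peak too. It was 8.70% there for 1-block and 15.3% for 2-block peaks, against 2.15% and 5.75% in the class between. The rise was thus not particular to members. By enrichment, the share of members called higher was 37.5% at 3 or less, 28.9% from there to 8, 18.7% from there to 15, and 8.31% above 15. It was 38.5%, 23.1%, 12.8% and 5.01% for 2-block peaks and 39.7%, 17.9%, 7.04% and 2.91% for 1-block peaks. In the lowest class members were thus no more often called higher than 1-block peaks, and in the other classes they were.

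Of the members, 1750 of 2072 (84.5%, ClpP) and 1441 of 1563 (92.2%, ClpX) shared bases with a peak of the other table as best mutual pairs, and 1221 peaks were members in both (58.9% of the ClpP and 78.1% of the ClpX members). A best partner had 2 blocks for 416 and 189 members and 1 block for 113 and 31, so a member of 1 table was often a shorter peak in the other. Of the 1221, 924 had the same number of blocks in both tables, 242 had more in the ClpP table and 55 more in the ClpX table. The tables share their WT libraries, so each keeps its own values here.

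Calls in the ClpP knockout are given by this pairing as a description. Both tables share the WT libraries, so a member listed in 1 table alone is likely to owe its listing to that knockout's libraries, and the split itself favours higher calls there. Of 322 ClpP members without a partner, 98 were called higher and 8 lower, their median log2 fold change being 1.16 and their median enrichment 3.66. Of the 1221 that were members in both tables, 163 (13.3%) were called higher and 272 (22.3%) lower, at a median of -0.051. Of the 924 with the same number of blocks in both, 80 (8.66%) were called higher and 223 (24.1%) lower, at a median of -0.13. Extents of peaks, too, were set in each table on its own libraries, so the same holds for the choice of these 924. In the ClpX knockout, 38 of the 122 members without a partner were called higher and 0 lower, at a median of 0.93, with the same limit. Of the 1221, 263 (21.5%) were called higher and 120 (9.83%) lower there, and of the 924, 207 (22.4%) and 100 (10.8%). Direction among the 1221 still turned with the longest block in the ClpP table. There 80 were higher and 32 lower where it was at most 200 bases, and 32 higher and 180 lower where it was over 400. For ClpX those counts were 90 and 14, and 93 and 86, so direction did not turn there. The ClpX share called higher was 18.9% and 20.9% in these classes, and the share called lower 2.95% and 19.3%.

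The members called in both tables with the smallest adjusted p-values are set side by side, ClpP first. Ldhc stood at -1.10 and -1.04, Pramel1 at -1.16 and -1.09, Crisp2 at -0.51 and -0.62, and Nsd1 at -0.82 and -0.86 in the authors' deposited tables. Mns1 stood at 0.81 and 1.20 over its 11 blocks, and Baz2a, a subunit of a chromatin remodeller that silences ribosomal DNA, at 1.31 and 1.90 over 4 blocks (chr10:128116579-128119494) in the authors' deposited tables. Opposite signs were given for Dnajb1 (-0.73 and 0.62), Ep400 (-0.63 and 0.34), Plec, which encodes the cytolinker plectin (-0.55 and 0.67), and Klhl10, a cullin-3 adaptor of spermatids (-0.61 and 0.95), in the authors' deposited tables. These 4 had a block over 400 bases in the ClpP table, and so did Pramel1, Crisp2 and Nsd1, which were called lower in both. The difference between the knockouts was not tested for any peak named here.

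**Figure D5:**
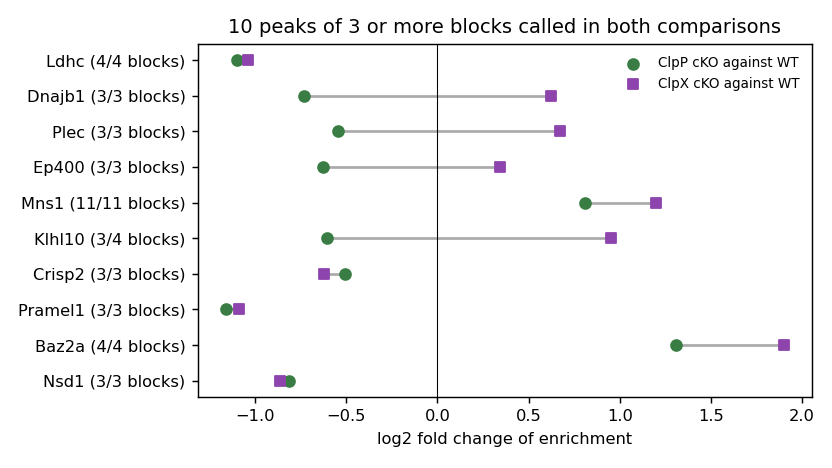
Log2 fold change against WT (horizontal axis) of 10 members called in both comparisons, ClpP as circles and ClpX as squares, with the numbers of blocks in both tables beside each gene; both comparisons share the WT libraries. Ldhc, Crisp2, Pramel1 and Nsd1 lie left of 0 in both, Mns1 and Baz2a right of 0 in both, and Dnajb1, Plec, Ep400 and Klhl10 lie on opposite sides.

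Sites of 1 gene did not always move alike. Cep350, a centrosome protein and the gene with the most members (6 in the ClpP table, picked after its values were seen), had log2 fold changes of -0.25, 0.15, 1.49, 2.05, 0.34 and -0.59 from low to high coordinate in the authors' deposited table. The peaks at 1.49 and 2.05 had 420 and 241 bases and were called higher, and the 7-block peak of 1679 bases at -0.59 was called lower. Myh9 had 4 members in the ClpX table, at 2.17, 1.34, 2.44 and 1.47 in the authors' deposited table, and all but the last were called higher. Rb1cc1, a subunit of the autophagy-initiating kinase complex, had a 3-block member at -0.65 and a 5-block member at 0.24 in the authors' deposited table for ClpP, both called.

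Members whose bases lay also in a peak of a different gene numbered 191 of 2072 (ClpP) and 172 of 1563 (ClpX), and their reads may stem from either gene. Among the members named here these included Cfap45, Ythdc1 and Zfp644 in the ClpP table and Cbll1, Acadvl, Adgrl1, Gm20716 and Zfp644 in the ClpX table. Ubb holds ubiquitin repeats that are near-identical to those of related genes, and Dnah7a and Dnah7b are near-identical copies, so the assignment of reads to these genes is uncertain.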

How the data were processed

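m6A-seq of 6 libraries (IP and input of WT, ClpP knockout and ClpX knockout at day 35) reached this work as 2 tables of the authors' own comparisons, knockout against WT. Libraries were made from 1.3 ug of total RNA with an mRNA-seq kit, per the labels' protocols. Per the submitters' processing notes coordinates are on GRCm38 (mm10). The aligner and peak caller were not given in the sources used here. As per the file headers, each line holds a peak with its block number, sizes and starts, a score and the p-value of the peak. The authors deposited log10 values of the peak p-value and of its adjusted form, and of both for the difference, and these were turned back into p-values here. The fold enrichment of IP over input is a ratio that the authors deposited once per peak, and each change between knockout and WT is a log2 fold change, per the file headers. The scaling for depth is not stated in headers or labels, and an error in it would move every log2 fold change of a table by the same amount.

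Members were lines with at least 3 blocks. Peaks of the tables were paired by at least 1 shared base of their blocks on the same strand, as best mutual pairs. Gene spans and start windows were those of RefSeq on GRCm38.p6, matched by symbol. Counts, medians with intervals from binomial order statistics and exact binomial (Clopper-Pearson) 95% intervals were computed in Python 3.11.15 with pandas 2.3.3, numpy 2.4.6 and scipy 1.17.1. The code was tested on simulated data. With 1 library per group, no test across samples was run. No depth is known, so no interval covers counting error of reads.

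Genes were named by rule, per table: up to 8 members called higher and 8 lower of smallest adjusted p, without predicted genes; the 5 with most blocks; the 3 highest and 3 lowest in enrichment; the 5 longest; up to 3 called members of each of 19 role lists, with other list members given to complete a count; and up to 10 called in both tables. Some genes that this rule names are not reported here. The members and the lists were chosen with earlier results of these data known, so they support nothing by themselves. Alternatives covered the adjusted p threshold, the number of blocks, an enrichment of at least 2, shared bases, 1 peak per gene, a size limit, centring on all peaks and the overlap of pairs.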

Additional observations from a re-analysis of the deposited data

Results flagged for a closer look

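Of the 1221 peaks that were members in both tables, 61 were called lower in ClpP and higher in ClpX and 1 the reverse, while 73 were called lower and 67 higher in both. Of the same 1221, 272 (22.3%) were called lower in ClpP and 263 (21.5%) higher in ClpX, against 12.8% and 15.1% of all peaks. How many opposite calls these shares alone would give was not tested. The difference between the knockouts was not tested for any of these peaks. The opposite calls with the smallest adjusted p-values and the 1 reverse call are given here for that opposite direction. In the authors' deposited tables the log2 fold change of the Dnajb1 peak was -0.733 (ClpP) and 0.621 (ClpX), that of Plec -0.547 and 0.672, that of Ep400 -0.629 and 0.343, and that of Klhl10 -0.605 and 0.953. Tex33, a testis-expressed gene, stood at -0.681 (ClpP) and 1.65 (ClpX), and the ubiquitin ligase Rnf40, which acts on histone H2B, at -0.664 and 1.05 in the authors' deposited tables. The Ankar peak ran the other way, at 0.406 (adjusted p = 0.0245) in ClpP and -0.731 (adjusted p = 0.0437) in ClpX in the authors' deposited tables, with both values close to the threshold. Each value rests on 1 IP and 1 input library per genotype, and both comparisons share the WT libraries.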

How the results depend on the processing

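Of the other settings tried, 33 left a result within its limits, as did 7 of the 8 that were added after seeing the data and counted only blocks of at least 25 bases. Members of 4 or more blocks gave 169 higher and 102 lower (ClpP) and 114 and 33 (ClpX), a ClpP median log2 fold change of 0.26 and a ClpX median enrichment of 6.56; fewer members enter there by construction. A limit of 1 on the absolute log2 fold change left 213 higher and 69 lower (ClpP) and 195 and 73 (ClpX). The ClpX count called lower was 84 at an adjusted p under 0.01, where 77.3% of called members were higher, and 87 with blocks of at least 25 bases. The ClpX median reversed to -0.0090 once the median of all peaks was taken away. Pairs sharing at least 50% of both peaks' bases numbered 1184 members in both tables and 1798 in all, against 1221 and 1970. No paired analysis was possible because each group holds 1 library and the labels carry no replicate numbers. The cause of these shifts was not tested beyond the smaller sets. Limits: depth is unknown, groups have 1 library, and low enrichment near 1 leaves little signal over input. Named calls with an enrichment under 2 in the authors' deposited tables included Cabcoco1 (1.61), Rnf32 (1.86) and Brd2 (1.96) for ClpP. For ClpX they included Pgam2 (1.60), Snrnp200 (1.63), Dnah8 (1.85), Prrc2a (1.87) and Ybx2 (1.96).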

Other observations

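Members on predicted genes and on uncharacterised RIKEN transcripts numbered 190 in the ClpP and 153 in the ClpX table, of which 14 were called higher and 39 lower (ClpP) and 26 higher and 13 lower (ClpX). Over all peaks 6.74% were called higher and 12.8% lower in ClpP, and 15.1% and 5.0% in ClpX. The peaks named among them were chosen after their values were seen. A 5-block peak of Gm10800 (chr2:98666547-98667301) had a log2 fold change of -1.01 (ClpP) and -2.39 (ClpX) in the authors' deposited tables, and nearby Gm10801 (chr2:98662237-98664083) had -3.81 in ClpX. Gm21738 on chromosome 14, a 6-block peak of 681 bases, stood at -1.25 (ClpP) and -3.27 (ClpX) in the authors' deposited tables. Whether reads map uniquely to Gm10800, Gm10801 and Gm21738 was not tested, so the assignment of reads to them is uncertain. Higher in ClpX were Gm14244 at 1.15, Gm16191 at 2.01 and Gm20716 at 1.11 in the authors' deposited table. The RIKEN genes 4930453N24Rik and 1700034J05Rik stood at -0.63 and -0.91 in the authors' deposited table for ClpP.

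Members on chromosome X numbered 32 in the ClpP table, 4 called higher and 5 lower, and 23 in the ClpX table, 1 higher and 2 lower, too few to set against the shares over all peaks. On chromosome Y, 1 member was listed in each table.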
